A study of Mus musculus with 16 samples.

Results

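The 10 mouse genes described here are the CYP4 fatty acid hydroxylases listed by symbol, namely Cyp4a10, Cyp4a14, Cyp4a12a and Cyp4a12b of the CYP4A subfamily, Cyp4f13, Cyp4f14, Cyp4f15, Cyp4f16 and Cyp4f17 of the CYP4F subfamily, and Cyp4v3. They are 10 of 27446 entries in the deposited liver table, and all 10 were among the 14308 entries tested. RNA was sequenced from livers of wild-type C57BL/6 mice, 8 libraries from mice that had emodin given into the stomach at 400 mg/kg over 3 weeks, carried in CMC-Na (0.5%), and 8 from mice that had only this vehicle. All mice were acclimated for 7 days, and livers were collected after the last dose. The labels give neither the age nor the sex of the mice nor whether any animal gave more than 1 library, so p-values measure the spread between libraries, each called a liver here. Emodin is an anthraquinone found in rhubarb and knotweed roots.

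CYP4 enzymes are membrane-bound P450s that add a hydroxyl group to the last (omega) carbon of a fatty acid, the first step of a route that turns fatty acids into dicarboxylic acids, which peroxisomes then shorten. They take electrons from P450 reductase (Por). In rodent liver the CYP4A genes Cyp4a10 and Cyp4a14 are classic targets of PPARα, the nuclear receptor that senses fatty acids, whereas CYP4F enzymes are known for acting on leukotrienes and other eicosanoids, and human CYP4V2, the counterpart of Cyp4v3, is the gene of Bietti crystalline dystrophy.

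The totals lay between 28.3 M and 48.2 M (M, mega) estimated counts and averaged 38.6 ± 6.91 M in emodin livers and 32.3 ± 3.16 M in vehicle livers (SD, n = 8 each). Levels are given as CPM, counts scaled to a common library size by TMM, and a difference is called where edgeR's quasi-likelihood test gave a Benjamini-Hochberg adjusted p under 0.05 over all tested entries. By that rule 1102 entries were higher and 782 lower with emodin, 13.2% of those tested. Emodin livers 4, 5 and 8 had the lowest sample quality weights of limma (0.376, 0.455 and 0.276), so the calls, and fold changes that move much without them, are also given without them. Such a weight falls as a library departs from the fitted values of its group, and is not a measure of RNA quality. The summed hepatocyte markers ranged over 72961 to 118340 CPM in emodin livers and 111390 to 142450 CPM in vehicle livers. Of the 10 markers, Alb alone was called lower and none was called higher, and their median log2 fold change was -0.02. In bulk liver RNA, fewer hepatocytes and less RNA per hepatocyte cannot be told apart.

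Every P450 holds its haem iron through a cysteine in a conserved stretch near the carboxyl end, and the 30 coding bases of that stretch show how close the 10 genes are. They were read from the GENCODE M21 transcripts of mm10, the cysteine codon is in capitals, and each stretch crosses an exon junction. The CYP4A genes lie on chromosome 4, the CYP4F genes on chromosome 17 and Cyp4v3 on chromosome 8.
Cyp4a10: ttctcaggaggagccaggaacTGCattggg
Cyp4a14: ttctcaggaggatcaaggaacTGCattggg
Cyp4a12a: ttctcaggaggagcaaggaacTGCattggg
Cyp4a12b: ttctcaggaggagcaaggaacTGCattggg
Cyp4f13: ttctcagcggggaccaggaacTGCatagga
Cyp4f14: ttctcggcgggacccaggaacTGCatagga
Cyp4f15: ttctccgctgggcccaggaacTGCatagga
Cyp4f16: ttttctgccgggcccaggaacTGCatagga
Cyp4f17: ttttctgctgggcctaggaacTGCatagga
Cyp4v3: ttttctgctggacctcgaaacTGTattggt
The stretches of Cyp4a12a and Cyp4a12b were identical, Cyp4f16 and Cyp4f17 differed at 2 bases, and Cyp4v3 is the only member that writes the cysteine as TGT. Over the aligned coding sequence, Cyp4a12a and Cyp4a12b were 98.5% identical, Cyp4a10 and Cyp4a14 75.7%, Cyp4f14 and Cyp4f15 82.2%, and Cyp4f16 and Cyp4f17 84.3%. How reads shared between genes were counted is not given in the sources used here. Of the 75-base windows of its transcript, Cyp4a12a shared 40.8% with Cyp4a12b, Cyp4a10 19.1% with Cyp4a32 or Cyp4a31, and Cyp4f16 16.1% with other genes, chiefly Cyp4f37, so these values are uncertain one by one. Cyp4v3 shared 6.4% with the overlapping Gm45753, Cyp4f17 0.942%, Cyp4f15 0.191% and Cyp4f14 0.186%, while Cyp4a14 and Cyp4f13 shared none.

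With emodin, 2 of the 10 CYP4 genes passed the test, Cyp4f17 higher and Cyp4f14 lower, and the other 8 did not. The share of all tested entries called was 7.70% higher and 5.47% lower. Both called genes belong to CYP4F (2 of 5), and none of the 4 CYP4A genes passed by edgeR or DESeq2. An unadjusted edgeR p under 0.05 was found for 4 of the 10 members, the 2 called ones with Cyp4a14 and Cyp4f16. Over all tested entries, 4249 of 14308 had such a p. By DESeq2, 3 members passed, since Cyp4f16 was added. Neither call was kept without emodin livers 4, 5 and 8, a fit with fewer emodin livers and so less power. None of the 10 members had CPM groups that did not overlap, a property of 1.97% of tested entries.

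**Figure D1:**
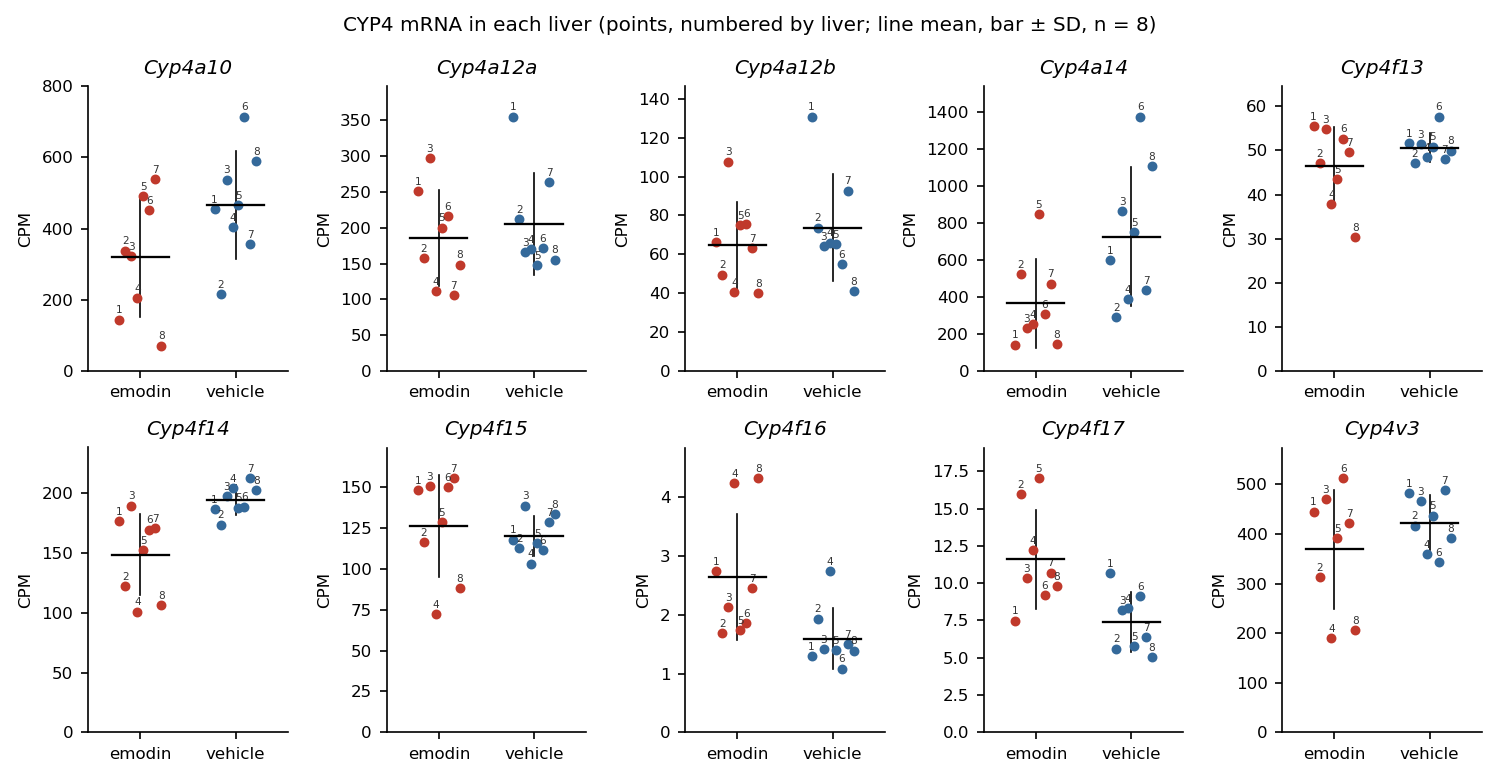
CPM of the 10 CYP4 genes in each liver, emodin left and vehicle right, with 1 point per liver (numbered), the mean as a line and the SD as a bar (n = 8 each). The groups overlap in every panel, and Cyp4f14 of emodin livers 4 and 8 lies at 100.9 and 106.6 CPM, below every vehicle liver.

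Among the CYP4A genes, Cyp4a14 had the largest difference. In emodin livers it ranged over 141.7 to 847.7 CPM with a median of 280.9 CPM, and in vehicle livers over 291.2 to 1373.6 CPM with a median of 675.1 CPM. Emodin livers 1, 8, 3 and 4 lay below every vehicle liver and 7 of 8 lay below the vehicle mean, but emodin liver 5, at 847.7 CPM, lay well inside the vehicle range. The log2 fold change was -0.99 ± 0.40 (SE; 95% interval -1.84 to -0.14), with an edgeR adjusted p of 0.110. It passed in 1 of 9 alternatives, limma with sample quality weights (-1.21, adjusted p 0.0412), and in 1 of 16 fits that left out a library, the one without emodin liver 5 (-1.29, adjusted p 0.0366). Without vehicle liver 6 it was -0.79 (adjusted p 0.197), and without emodin livers 4, 5 and 8 it was -1.11 (adjusted p 0.129).

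Cyp4a10, the other PPARα-responsive omega-hydroxylase, ranged over 71.4 to 538.5 CPM in emodin livers with a median of 330.6 CPM, and over 216.0 to 714.9 CPM in vehicle livers with a median of 460.5 CPM. Emodin livers 8, 1 and 4 lay below every vehicle liver, and the other 5 lay within the vehicle range. The log2 fold change was -0.55 ± 0.35 (95% interval -1.28 to 0.19; edgeR adjusted p 0.308). The spread between livers was wide, with the highest emodin liver 7.54-fold above the lowest, against 3.31-fold among vehicle livers.

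Cyp4a12a, an omega-hydroxylase of arachidonic acid that is typical of male mice and depends on androgen and growth hormone, ranged over 105.6 to 297.0 CPM in emodin livers (median 178.8) and 147.9 to 355.5 CPM in vehicle livers (median 171.0). The groups overlapped, and 2 emodin livers lay below every vehicle liver. Its log2 fold change of -0.14 ± 0.23 (95% interval -0.63 to 0.34; edgeR adjusted p 0.714) is within the spread between livers. Its near-identical neighbour Cyp4a12b ranged over 39.9 to 107.7 CPM in emodin livers (median 64.7) and 40.9 to 130.9 CPM in vehicle livers (median 65.7). The log2 fold change of Cyp4a12b was -0.19 ± 0.23 (95% interval -0.68 to 0.31; edgeR adjusted p 0.631).

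In the CYP4F subfamily, Cyp4f14, whose product hydroxylates leukotriene B4, fell with emodin. It ranged over 100.9 to 189.6 CPM in emodin livers with a median of 160.8 CPM, and over 173.6 to 212.6 CPM in vehicle livers with a median of 193.2 CPM. All 8 emodin livers lay below the vehicle mean and 6 lay below every vehicle liver, livers 4, 8 and 2 farthest. The mean was 149 ± 34.1 CPM in emodin livers and 194 ± 12.3 CPM in vehicle livers (SD, n = 8 each), a log2 fold change of -0.39 ± 0.12 (95% interval -0.64 to -0.13; edgeR adjusted p 0.0439). The call rests on a narrow margin: it was lost when any 1 of 11 libraries was left out, and kept only without emodin 1, 3, 6 or 7 or vehicle 2. Without emodin livers 4, 5 and 8 the log2 fold change was -0.22 (adjusted p 0.133), with limma's quality weights -0.29 (adjusted p 0.0524), and with no filter on low counts -0.38 (adjusted p 0.0625).

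The 4 emodin livers with the lowest Cyp4f14 CPM were livers 4, 8, 2 and 5, and these were also the 4 with the highest summed acute phase proteins. That sum of 22 plasma proteins and binding proteins of the inflammatory response was 77203, 56624, 65673 and 48437 CPM in emodin livers 4, 8, 2 and 5. In the other 4 emodin livers it was 25028 to 35322 CPM, and in vehicle livers 21928 to 28122 CPM. Emodin livers 4, 8, 2 and 5 were also the 4 lowest emodin livers for Cyp4f13, Cyp4f15 and Cyp4v3, which were not called. The match is therefore not particular to Cyp4f14. The part of the acute phase proteins in these CYP4 values was not tested.

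Cyp4f17, a neighbour on chromosome 17, rose with emodin. It ranged over 7.49 to 17.0 CPM in emodin livers with a median of 10.5 CPM, and over 5.03 to 10.7 CPM in vehicle livers with a median of 7.29 CPM. Each of the 8 emodin livers exceeded the vehicle mean, and 4, livers 5, 2, 4 and 7, above every vehicle liver. The log2 fold change was 0.65 ± 0.18 (95% interval 0.26 to 1.03; edgeR adjusted p 0.0286), a 1.57-fold difference. Leaving out emodin 2, 4 or 5 or vehicle 5 or 7 ended the call, and without emodin livers 4, 5 and 8 the log2 fold change was 0.54 (adjusted p 0.104).

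Cyp4f16 was the scarcest member, with as few as 35 estimated counts in a library. It ranged over 1.69 to 4.33 CPM in emodin livers (median 2.29) and 1.09 to 2.74 CPM in vehicle livers (median 1.41). Each of the 8 emodin livers exceeded the vehicle mean and 3 lay above every vehicle liver, livers 8 and 4 highest. Its log2 fold change of 0.73 ± 0.24 (95% interval 0.22 to 1.24) was larger than that of Cyp4f17, yet the edgeR adjusted p was 0.0535. DESeq2 called it (adjusted p 0.0275), and so did edgeR without emodin 5, emodin 6 or vehicle 4 (lowest adjusted p 0.0259). Without emodin liver 4 it was 0.60 (adjusted p 0.121), without emodin liver 8 it was 0.59 (adjusted p 0.105), and without emodin livers 4, 5 and 8 it was 0.45 (adjusted p 0.224).

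Cyp4f15, a hydroxylase of the same subfamily, ranged over 72.4 to 155.3 CPM in emodin livers with a median of 138.1 CPM, and over 103.1 to 138.4 CPM in vehicle livers with a median of 116.7 CPM. The emodin livers were more spread, with 4 above and 2 below every vehicle liver. The log2 fold change of 0.07 ± 0.14 (95% interval -0.22 to 0.36; edgeR adjusted p 0.771) depended on the low livers 4 and 8, being 0.16 (adjusted p 0.394) without emodin liver 4, 0.13 (adjusted p 0.541) without emodin liver 8 and 0.27 (adjusted p 0.0598) without emodin livers 4, 5 and 8. Cyp4f13 ranged over 30.4 to 55.6 CPM in emodin livers (median 48.4) and 47.1 to 57.7 CPM in vehicle livers (median 50.4), with a log2 fold change of -0.12 ± 0.10 (95% interval -0.34 to 0.09; edgeR adjusted p 0.446). Here 3 emodin livers lay below every vehicle liver and the coefficient of variation was 19% in emodin livers and 6.49% in vehicle livers.

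Cyp4v3, whose human counterpart acts on fatty acids in the eye and liver, ranged over 190.2 to 512.6 CPM in emodin livers (median 406.3) and 343.8 to 488.2 CPM in vehicle livers (median 426.7). Emodin livers 4, 8 and 2 lay below every vehicle liver and 1 lay above them all. The log2 fold change was -0.20 ± 0.18 (95% interval -0.58 to 0.18; edgeR adjusted p 0.495). The coefficient of variation was 32.7% in emodin livers and 13% in vehicle livers.

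**Figure D2:**
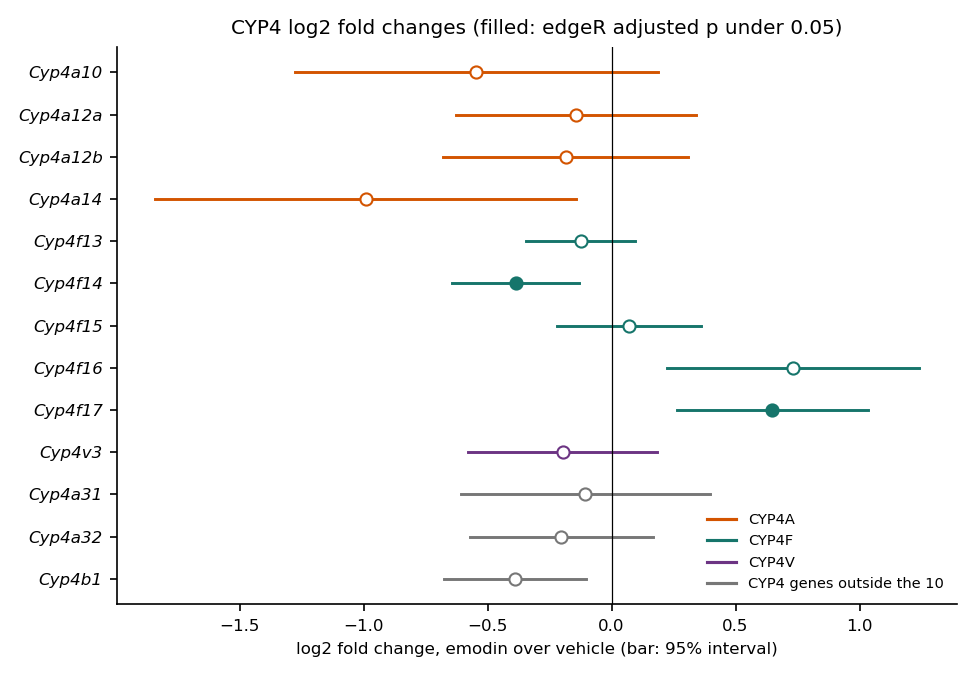
Log2 fold changes, emodin over vehicle, of the 10 CYP4 genes and 3 further CYP4 genes, with 95% intervals and filled points where the edgeR adjusted p was under 0.05. Only Cyp4f14 (-0.39) and Cyp4f17 (0.65) are filled, and Cyp4a14 (-0.99) has the widest interval of the 10 members.

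The rule for these genes asks for CYP4A against CYP4F. The median log2 fold change was -0.37 over the 4 CYP4A genes and 0.07 over the 5 CYP4F genes, a difference of -0.44, beside a median of 0.01 over all tested entries. All 4 CYP4A values were below 0 with each library scaling tried, and none passed the test, although Cyp4a12a lay at 0.0026 with limma's weights, while the CYP4F values fell on both sides of 0. As a description, the summed CYP4A level was 936 ± 387 CPM in emodin livers and 1472 ± 490 CPM in vehicle livers, and the summed CYP4F level was 335 ± 70.9 CPM in emodin livers and 374 ± 19.9 CPM in vehicle livers (SD, n = 8 each). The log2 ratio of CYP4A to CYP4F within a liver was 1.39 ± 0.53 in emodin livers and 1.91 ± 0.47 in vehicle livers, with 7 of 8 emodin livers below the vehicle median but only 2, livers 1 and 8, below every vehicle liver. Cyp4a14 and Cyp4a10 together were at 685 ± 381 CPM in emodin livers and 1193 ± 522 CPM in vehicle livers, the larger part of the CYP4A sum.

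Relative to Cyp4f14, the gene called lower, every other CYP4F gene stood higher on average in emodin livers. So did Cyp4a12a, Cyp4a12b and Cyp4v3, while Cyp4a10 and Cyp4a14 stood lower. No scaling between libraries can alter such ratios within a liver. The log2 ratio of Cyp4f15 to Cyp4f14 was -0.25 ± 0.12 in emodin livers (-0.48 to -0.07) and -0.70 ± 0.14 in vehicle livers (-0.98 to -0.51). All 8 emodin livers lay above all 8 vehicle livers, livers 4, 5 and 8 included. This ratio was chosen after the values were seen and has no test: of the 45 ratios between members it was the 1 whose groups did not overlap, and 5.10% of the other tested entries (729 of 14307) had a ratio to Cyp4f14 that lay wholly higher in emodin livers. The log2 ratio of Cyp4f17 to Cyp4f14 was -3.69 ± 0.62 in emodin livers and -4.76 ± 0.40 in vehicle livers, with 5 emodin livers above every vehicle liver. Between the PPARα-responsive genes, the log2 ratio of Cyp4a14 to Cyp4a10 was 0.18 ± 0.59 in emodin livers and 0.53 ± 0.34 in vehicle livers, which overlapped widely.

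**Figure D3:**
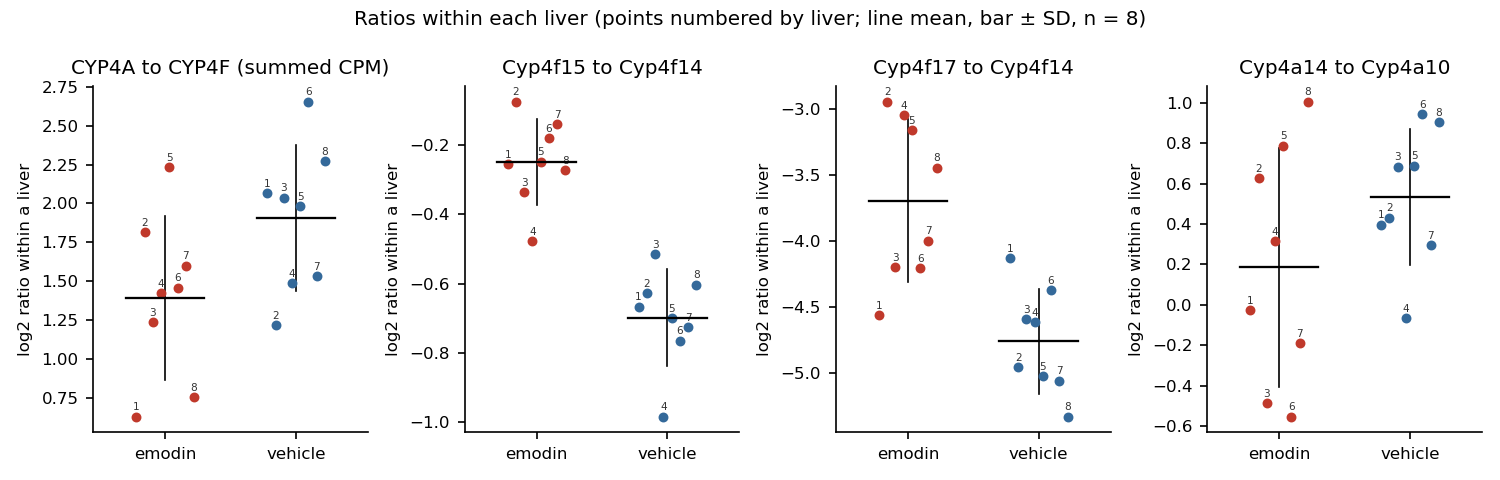
Log2 ratios of CPM within each liver, emodin left and vehicle right, with numbered points, the mean as a line and the SD as a bar (n = 8 each). Cyp4f15 to Cyp4f14 is the 1 ratio drawn whose groups do not overlap (-0.48 to -0.07 in emodin livers, -0.98 to -0.51 in vehicle livers).

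The 250 bases before the start of Cyp4f14 and of Cyp4f15, the pair of that ratio, and of Cyp4f16, which holds a match to the motif searched, are given from RefSeq on build GRCm38.p6 in the direction of the gene. Promoters were found for 5 of the 10 members, the other 2 being Cyp4f13 and Cyp4v3. The CYP4A genes and Cyp4f17 had no promoter in the source used and were not searched.
Cyp4f14 (chr17:32917357-32917606, minus strand): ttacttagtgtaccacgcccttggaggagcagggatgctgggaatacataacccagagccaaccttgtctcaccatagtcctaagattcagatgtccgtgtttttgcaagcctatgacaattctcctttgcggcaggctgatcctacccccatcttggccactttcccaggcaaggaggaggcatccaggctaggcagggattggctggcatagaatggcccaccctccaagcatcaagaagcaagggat
Cyp4f15 (chr17:32685409-32685658, plus strand): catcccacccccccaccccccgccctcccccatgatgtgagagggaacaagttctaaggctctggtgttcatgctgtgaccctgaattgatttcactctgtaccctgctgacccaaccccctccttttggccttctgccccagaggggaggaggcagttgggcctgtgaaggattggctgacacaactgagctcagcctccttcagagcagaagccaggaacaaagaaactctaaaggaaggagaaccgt
Cyp4f16 (chr17:32536307-32536556, plus strand): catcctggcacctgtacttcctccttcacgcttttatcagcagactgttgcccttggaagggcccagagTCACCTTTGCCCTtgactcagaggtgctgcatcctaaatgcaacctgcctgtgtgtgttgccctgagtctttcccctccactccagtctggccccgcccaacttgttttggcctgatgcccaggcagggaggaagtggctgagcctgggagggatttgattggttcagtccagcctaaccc
The motif was the direct repeat bound by PPARα with its partner RXR, AGGTCANAGGTCA, sought on both strands with at most 2 mismatches in the window of 250 bases before to 50 after the start. In Cyp4f16 a match with 2 mismatches, in capitals, begins at base -181, and 3.81% of 27025 promoters hold such a match. A match is a description of letters, and the other 4 windows held none.

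Between genes, levels were compared per kb of merged exons. In vehicle livers the order was Cyp4a14 (279 ± 144 CPM per kb), Cyp4a10 (222 ± 71.9), Cyp4v3 (111 ± 14.4), Cyp4a12a (84.7 ± 29.5), Cyp4f14 (80.3 ± 5.08), Cyp4f15 (52.6 ± 5.32), Cyp4a12b (30.7 ± 11.5), Cyp4f13 (11.4 ± 0.740), Cyp4f17 (2.31 ± 0.622) and Cyp4f16 (0.521 ± 0.170; all SD, n = 8). Neighbours in this order overlapped between livers except Cyp4f14 over Cyp4f15, Cyp4a12b over Cyp4f13, Cyp4f13 over Cyp4f17 and Cyp4f17 over Cyp4f16. With the longest transcript as length, Cyp4f14 (87.4 CPM per kb) stood above Cyp4a12a (84.7), and Cyp4f13 (28.9) overlapped Cyp4a12b (30.7). In emodin livers Cyp4a10 (152 ± 80.3 CPM per kb) stood first and Cyp4a14 (140 ± 92.1) next, and the order of the other 8 was the same. The called CYP4F genes thus differ by far in level, with Cyp4f14 at 61.4 ± 14.1 and Cyp4f17 at 3.63 ± 1.04 CPM per kb in emodin livers.

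Pairs of members also varied together between livers of the same group. Subtracting the group mean removes the mean difference with emodin, but not differences in response between emodin livers. Over the 16 livers, deviations from the group mean of log2 CPM were correlated for 45 pairs, and 9 had a Benjamini-Hochberg adjusted permutation p under 0.05 for Pearson's r, 7 positive and 2 negative. Cyp4a14 and Cyp4a10 varied together (r = 0.83, permutation p 0.00011, adjusted p 0.00247; rho = 0.87, permutation p 4e-05, adjusted p 0.0018), with r = 0.81 without the 2 livers farthest from the median. Both ran against Cyp4f16, with r = -0.71 for Cyp4a14 (permutation p 0.00378, adjusted p 0.0243; rho = -0.74, permutation p 0.00224, adjusted p 0.0168; r = -0.65 without the 2 farthest livers) and r = -0.72 for Cyp4a10 (permutation p 0.00447, adjusted p 0.0251; rho = -0.70, permutation p 0.00727, adjusted p 0.0409; r = -0.63 without the 2 farthest livers).

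Cyp4f14, Cyp4f15 and Cyp4v3 were also positively correlated with each other. Cyp4f15 and Cyp4v3 had r = 0.93 (permutation p 1e-04, adjusted p 0.00247; rho = 0.90, permutation p 0.00016, adjusted p 0.0033), with r = 0.72 without emodin livers 4 and 8. For Cyp4f14 and Cyp4f15 r was 0.90 (permutation p 0.00022, adjusted p 0.00247; rho = 0.81, permutation p 0.00185, adjusted p 0.0167), and 0.70 without those livers. For Cyp4f14 and Cyp4v3 r was 0.89 (permutation p 0.00109, adjusted p 0.00817; rho = 0.79, permutation p 0.00429, adjusted p 0.0276), and 0.62 without them. Within the emodin group alone r of Cyp4f14 with Cyp4f15 was 0.96, and within the vehicle group it was 0.38. In the same order, r was 0.96 and 0.08 for Cyp4f14 with Cyp4v3, and 0.97 and 0.57 for Cyp4f15 with Cyp4v3. For Cyp4f13 with Cyp4f14 it was 0.87 and -0.13. The other pairs with an adjusted p under 0.05 kept their sign in both groups, such as Cyp4a10 with Cyp4a14 at 0.82 and 0.94. These differences were not tested. Cyp4f13 followed Cyp4f14 with r = 0.80 (permutation p 0.0070, adjusted p 0.0350), but rho was 0.62 (permutation p 0.0315, adjusted p 0.118) and r was 0.45 without emodin livers 4 and 8, so the relation rests on those livers. Cyp4a12b varied with Cyp4v3 (r = 0.74, permutation p 0.00022, adjusted p 0.00247; rho = 0.81, permutation p 0.00022, adjusted p 0.0033; r = 0.74 without the 2 farthest livers) and with Cyp4a12a (r = 0.81, permutation p 0.00032, adjusted p 0.00288; rho = 0.78, permutation p 0.00094, adjusted p 0.0106; r = 0.64 without the 2 farthest livers), with which it shares sequence. Emodin liver 8 was among the 2 lowest emodin livers for 7 members and emodin liver 4 for 6.

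**Figure D4:**
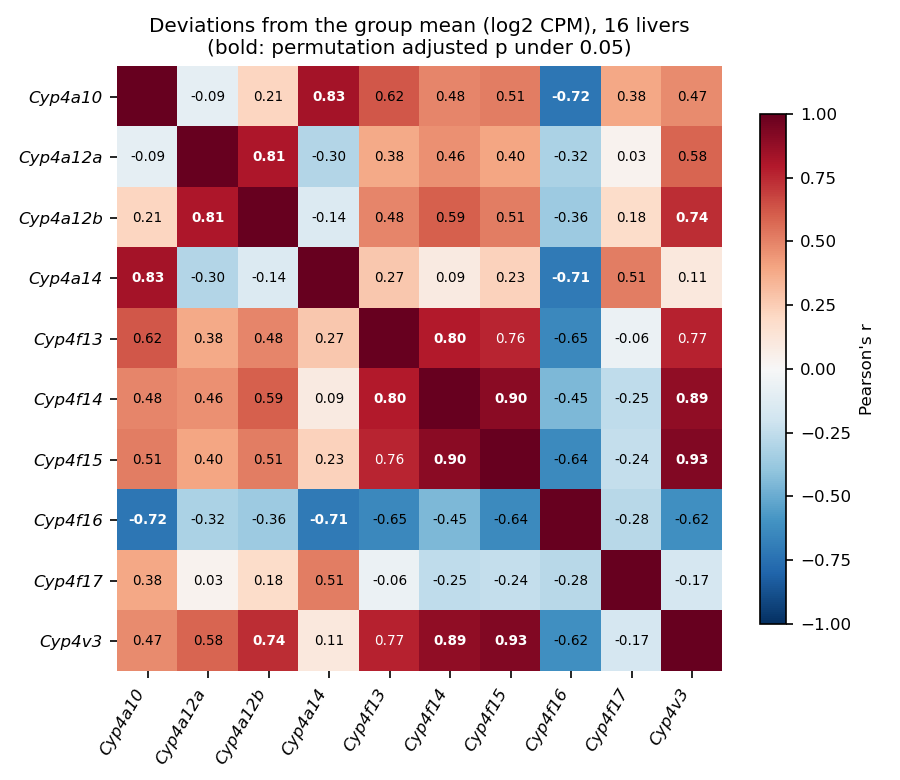
Pearson's r between the 10 CYP4 genes, from deviations of log2 CPM from the group mean over 16 livers, with r printed in each cell and bold where the adjusted permutation p was under 0.05. The 7 bold positive pairs are Cyp4a10 with Cyp4a14 (0.83), Cyp4a12a with Cyp4a12b (0.81), Cyp4a12b with Cyp4v3 (0.74), Cyp4f13 with Cyp4f14 (0.80), and Cyp4f14, Cyp4f15 and Cyp4v3 with each other; the 2 bold negative pairs are Cyp4f16 with Cyp4a10 and Cyp4a14.

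By the same measure over 12838 annotated genes outside the family, those most like Cyp4a14 were Srsf11 (r = 0.92), Hsdl2 (0.89), Slc22a5 (0.88), Amigo2 (0.88) and Dcun1d3 (0.87). Those most like Cyp4f14 were Fggy (0.95), Pcmtd1 (0.95), Abca3 (0.95), Rmnd5a (0.94) and Papss2 (0.94). Of these 10 genes, Abca3 alone was called, at 30.4 ± 6.85 CPM in emodin livers and 47.2 ± 4.73 CPM in vehicle livers (log2 fold change -0.64 ± 0.12; edgeR adjusted p 0.00401). The values are the highest of many and come with no test.

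Around the hydroxylases, Por, which feeds electrons to all microsomal P450s, was higher with emodin at 579 ± 144 CPM in emodin livers and 296 ± 85.8 CPM in vehicle livers (log2 fold change 0.97 ± 0.19; edgeR adjusted p 0.00536). It was the 1 gene called higher among 21 partners of omega-oxidation, 6 were called lower and 14 did not pass, with a median log2 fold change of -0.34 (2 higher and 6 lower without emodin livers 4, 5 and 8). Over all tested entries, 7.70% were called higher and 5.47% lower. Abcd2, a peroxisomal transporter of fatty acyl-CoA, was lower, every emodin liver below every vehicle liver, at 13.1 ± 5.76 CPM in emodin livers and 40.2 ± 10.8 CPM in vehicle livers (log2 fold change -1.62 ± 0.26; edgeR adjusted p 0.00163). Crot, the peroxisomal carnitine octanoyltransferase, fell by 0.64 ± 0.14 on the log2 scale, and Acsl1, an acyl-CoA synthetase, by 0.67 ± 0.21 (edgeR adjusted p 0.00809 and 0.0453). The other 3 called lower were Adh4, Acsl5 and Abcd3.

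The list for PPARα held 32 genes, including Ppara and Rxra, which encode the receptor and its partner, and leaving aside the CYP4 family. Of these, 2 were called higher, 1 was called lower and 29 did not pass, beside 7.70% higher and 5.47% lower over all tested entries. Their median log2 fold change was -0.07. Without emodin livers 4, 5 and 8, by DESeq2 or with library totals as scaling, 3 were called lower. Cidec, a lipid droplet protein, was higher at 8.06 ± 5.63 CPM in emodin livers and 2.30 ± 0.587 CPM in vehicle livers (log2 fold change 1.80 ± 0.36; edgeR adjusted p 0.00576). Creb3l3, a liver transcription factor, was higher by 0.35 ± 0.09 and Hadhb, a subunit of mitochondrial beta-oxidation, fell by 0.36 ± 0.08 on the log2 scale (edgeR adjusted p 0.0206 and 0.00766). Of 18 tested enzymes of arachidonic acid and leukotriene metabolism, none passed the edgeR test and DESeq2 called 1 lower. Beside 4249 of the 14308 tested entries, 4 of these enzymes had an unadjusted edgeR p under 0.05, 2 in each direction. The smallest p-values there belonged to Hpgd, which inactivates prostaglandins (log2 fold change -0.32 ± 0.11; adjusted p 0.0741), and Alox12, a lipoxygenase (0.65 ± 0.28; adjusted p 0.127).

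**Figure D5:**
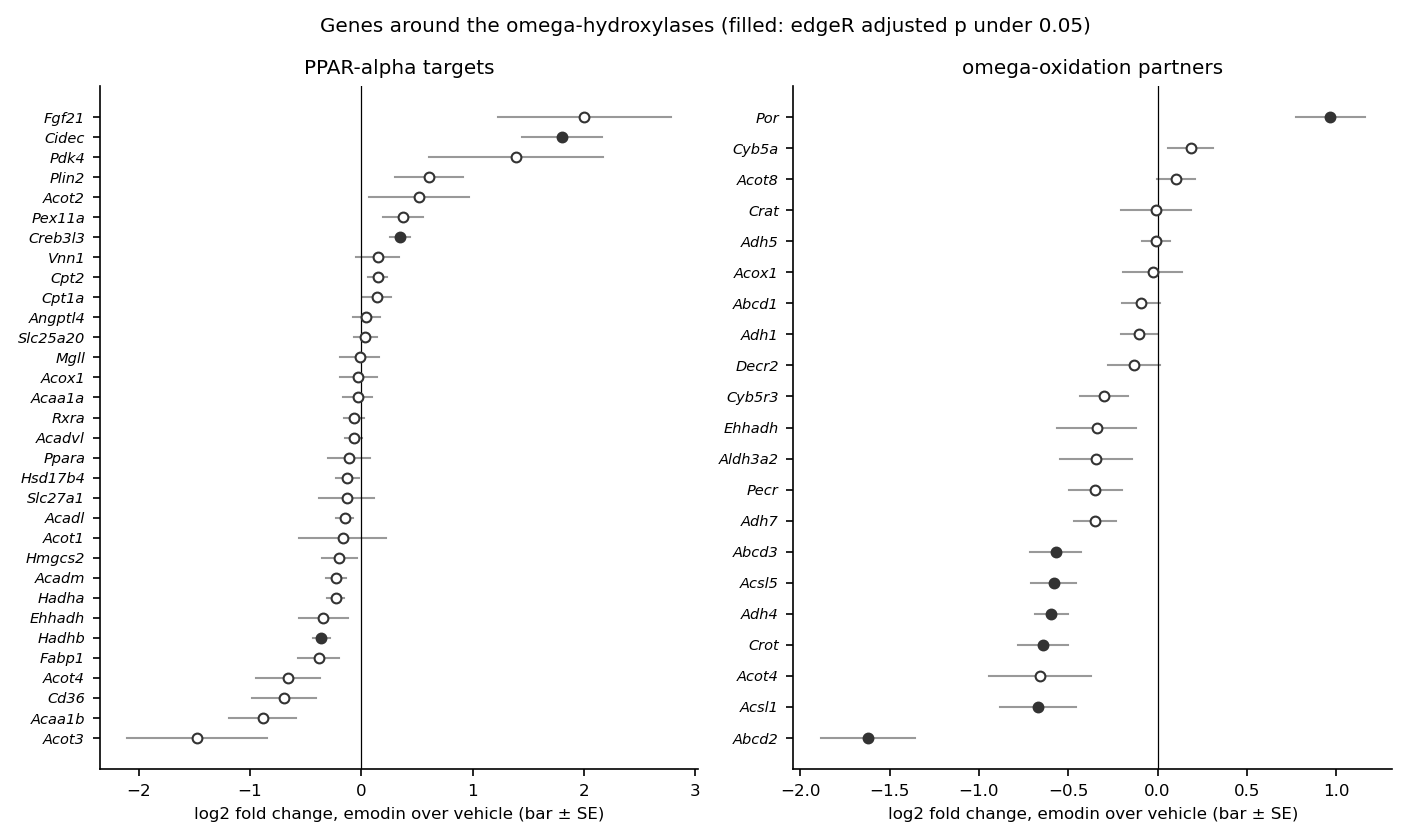
Log2 fold changes, emodin over vehicle, of the 32 genes listed for PPARα (left) and 21 partners of omega-oxidation (right). The bar is the SE, points are filled where the edgeR adjusted p was under 0.05, and Ppara and Rxra are among the 32. Filled partners lie below 0 except Por (0.97), while 3 of the PPARα targets are filled, Cidec farthest above 0 (1.80).

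Of 18 male-biased liver genes 4 were called lower and 1, the complement gene C6, was called higher, with a median log2 fold change of 0.02. Without emodin livers 4, 5 and 8 the counts were 1 lower and 0 higher, and with no filter on low counts or with limma's weights 2 were lower. Elovl3, a fatty acid elongase, was at 41.0 ± 21.4 CPM in emodin livers and 101 ± 20.2 CPM in vehicle livers, and all 8 emodin livers lay below every vehicle liver (log2 fold change -1.31 ± 0.30; edgeR adjusted p 0.0110). Cyp2u1, a P450 of another family, fell by 0.82 ± 0.19, Nudt7, a peroxisomal hydrolase of CoA, by 0.69 ± 0.22, and Keg1 by 0.69 ± 0.21 on the log2 scale. Of 13 tested female-biased genes, 1 was called lower, again Abcd2, with a median of -0.25.

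Of the 10 further CYP4 genes, 4 were tested, none passed the edgeR test and DESeq2 called 1 lower. Beside 4249 of the 14308 tested entries, 1 of these 4 genes had an unadjusted edgeR p under 0.05. Cyp4b1 was at 7.93 ± 1.39 CPM in emodin livers and 10.4 ± 2.22 CPM in vehicle livers (log2 fold change -0.39 ± 0.14; adjusted p 0.0668). Cyp4a32, which shares windows with Cyp4a10, was at 32.7 ± 8.74 CPM in emodin livers and 37.6 ± 8.07 CPM in vehicle livers (log2 fold change -0.20 ± 0.17; adjusted p 0.465). Cyp4a29, Cyp4a30b, Cyp4f37 and Cyp4f40 had 0 counts in every library.

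Of 22 acute phase proteins 17 were called higher and none lower, beside 7.70% and 5.47% of all tested entries. Their median log2 fold change was 1.36. Without emodin livers 4, 5 and 8, 13 were called higher, and with limma's weights 11. Lcn2, Saa2, Saa1 and Orm2 had the largest log2 fold changes (5.93 ± 1.02, 5.88 ± 1.11, 5.29 ± 0.88 and 4.15 ± 0.79). The summed Kupffer cell markers were 249.9 to 668 CPM in emodin livers and 169.7 to 770.1 CPM in vehicle livers, with none of 10 called, and the neutrophil markers were 2.78 to 9.90 CPM in emodin livers and 1.80 to 5.96 CPM in vehicle livers, with none of 4 tested called. Sinusoidal endothelial markers were 213 to 337 CPM in emodin livers and 201 to 365 CPM in vehicle livers (Kdr lower), stellate cell markers 224 to 383 CPM in emodin livers and 269.97 to 576 CPM in vehicle livers (Rgs5 lower), and bile duct markers 40.2 to 189 CPM in emodin livers and 46.5 to 78.9 CPM in vehicle livers (none of 8 called). None of these marker lists had a gene at 0 in all libraries, and their part in the CYP4 results was not tested.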

How the data were processed

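Per the labels' protocols, libraries were made from 1 µg of total liver RNA. The authors' deposited table holds estimated counts per gene for 16 libraries, unscaled; the unit was read from the values (0 were not whole). The programs listed, per the submitters' processing notes, are HISAT2, Cufflinks 2.2.1, HTSeq 0.6.1, cutadapt 1.9.1 and SAMtools 0.1.19, with the mm10 genome; their roles, the annotation and the treatment of shared reads are not given in the sources used here.

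All 27446 entries were put through edgeR 4.0.16 (R 4.3.3) with filterByExpr, TMM factors (0.929 to 1.16) and the robust quasi-likelihood test with group as the single term, which left 14308 tested. Adjustment followed Benjamini and Hochberg over those entries. Standard errors and 95% intervals come from the same fit. The members are named by symbol, and the members and gene lists were chosen with earlier results of these data known. The text names all members, up to 4 called genes of each list by fold change (2 by p where none passed) and the 5 genes most like Cyp4a14 and Cyp4f14; ratios between members, C6 and the further omega-oxidation partners were named after their values were seen. Correlations used 100000 permutations within groups. No 2 libraries differed by as little as sampling noise. Alternatives used DESeq2 1.42.0 and limma 3.58.1. The fit was tested on simulated data. The spread between livers was used as the error throughout. The result of 1 marker list is not reported here.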

Additional observations from a re-analysis of the deposited data

Results flagged for a closer look

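Of 30 groups of 8 values examined, 2 held a liver far from the other 7, and chance flags about 1 in 20 groups. Cyp4f13 was at 57.7 CPM in vehicle liver 6, above the other 7 vehicle livers. The log2 ratio of Cyp4a12a to Cyp4a12b was 0.74 in emodin liver 7, below the other 7 emodin livers.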

How the results depend on the processing

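The median log2 fold change of CYP4A less that of CYP4F kept its sign under every alternative run, from -0.62 with Cyp4a12a and Cyp4a12b summed to -0.35 without vehicle 1. Members called higher numbered 2 by DESeq2 and 0 with the replicate block or without emodin 4, 5 and 8, and 0 to 2 when 1 library was left out. Members called lower numbered 0 with no filter on low counts, with the replicate block or without emodin 4, 5 and 8, and 0 to 1 when 1 library was left out. Leaving out emodin 4, 5 and 8 was chosen after seeing the data. Over all entries, 628 were called higher with the replicate block and 734 without emodin 4, 5 and 8. Leaving out 1 library gave 709 to 1333 higher, lowest without emodin 4, and 521 to 903 lower, lowest without emodin 2. The cause of these shifts was not tested.

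Values that changed sign did so close to 0. Cyp4a12a was at 0.0026 with limma weights, 0.020 without vehicle 1 and 0.0073 without emodin 4, 5 and 8, and without those 3 libraries Cyp4f13 was at 0.042, Cyp4v3 at 0.037 and Cyp4a12b, with its sign kept, at -0.016. Leaving out 1 library moved Cyp4a12a between -0.26 and 0.020. The replicate numbers were not shown to pair the livers, since same-numbered livers deviated with r from -0.15 to 0.25 and 2 of 8 correlated best with their own number; with the replicate block Cyp4f14 was at -0.42 (log2; edgeR adjusted p 0.0560) and Cyp4f17 at 0.64 (0.0930), and 1 PPARα target and 0 male-biased genes were called higher. Cyp4f13 per kb was 26.5 in emodin livers and 28.9 in vehicle livers with the longest transcript as length. The fewest estimated counts of a member in a library were 35, for Cyp4f16.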
